A study of Caenorhabditis elegans with 2 samples.

Results

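The piRNA genes of Caenorhabditis elegans were described by where peaks of the chromatin protein XND-1 lay around them. All genes of the biotype piRNA in the WBcel235 annotation (ce11, Ensembl release 115) were taken, which gave 15363 of the 46890 annotated genes on the 6 nuclear chromosomes, beside 19973 protein-coding genes. Chromosome IV held 14714 of them, or 95.8%. The other chromosomes held 98 (I), 109 (II), 78 (III), 202 (V) and 162 (X). On chromosome IV, bins of 100 kb with 50 or more piRNA genes were called piRNA-rich. There were 54 such bins, with 14124 piRNA genes, and 121 other bins, with 590. The samples were whole young adult hermaphrodites of strain QP0661, collected 50 h after synchronization as starved L1 larvae and described as carrying an insertion that targets xnd-1, so that XND-1 bears GFP and FLAG at its C-terminus. Chromatin was sonicated and precipitated with an antibody against GFP for sequencing (ChIP-seq). The design was 1 group with 2 biological replicates and no other genotype or treatment, so the comparisons were made between places in the genome. Whether an untagged xnd-1 copy remained is not given in the sources used here, whole worms mix germline and somatic nuclei, and peak lists give no expression by which the labelled stage could be checked.

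In C. elegans, piRNAs are the 21U-RNAs, short RNAs that begin with a uridine, are loaded onto the Piwi protein PRG-1 in the germline and silence transposons and other foreign sequences. Each is transcribed by RNA polymerase II from a minute gene of its own. Most lie in large clusters and have an upstream motif with the sequence CTGTTTCA, whose core is GTTTC; the upstream sequence transcription complex of PRDE-1, SNPC-4, TOFU-4 and TOFU-5 acts at these genes. Others lack the motif and come from short transcripts made near the promoters of protein-coding genes. XND-1 is a germline chromatin protein that is enriched on autosomes and acts in crossover formation.

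The following genes are shown because a reproducible XND-1 summit lay within 200 bp of each. The first 3 had the strongest peaks of those printed, 21ur-3338 and 21ur-2046 overlap and share a summit with a further gene, 21ur-11151 lay in the right cluster with the core motif, and 21ur-7377 and 21ur-5343 were the 2 with the whole motif. Each line gives the 60 bases upstream and then the piRNA, 5′ to 3′ on the gene's own strand, from the RefSeq copy of the WBcel235 genome. Capitals mark the 21 bases of the piRNA. Upstream of it they mark only the first match to CTGTTTCA or to GTTTC that starts 30 to 70 bases before the piRNA.
21ur-9572 (chrIII:10807422-10807502, plus strand): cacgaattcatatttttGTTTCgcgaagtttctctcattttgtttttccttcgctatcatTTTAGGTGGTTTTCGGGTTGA
21ur-15059 (chrIV:2783382-2783462, plus strand): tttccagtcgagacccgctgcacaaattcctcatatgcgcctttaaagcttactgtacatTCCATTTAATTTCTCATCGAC
21ur-12364 (chrIII:13755791-13755871, minus strand): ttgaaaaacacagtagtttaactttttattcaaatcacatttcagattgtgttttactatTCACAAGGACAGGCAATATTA
21ur-3338 (chrIV:13600789-13600869, plus strand): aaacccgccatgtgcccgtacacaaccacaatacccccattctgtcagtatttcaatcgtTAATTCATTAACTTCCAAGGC
21ur-2046 (chrIV:13600792-13600872, plus strand): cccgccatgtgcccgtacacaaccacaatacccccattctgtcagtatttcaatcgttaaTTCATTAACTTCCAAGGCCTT
21ur-11151 (chrIV:15530867-15530947, minus strand): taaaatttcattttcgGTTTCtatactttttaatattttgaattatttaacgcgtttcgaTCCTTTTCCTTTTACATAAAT
21ur-7377 (chrIV:5265097-5265177, minus strand): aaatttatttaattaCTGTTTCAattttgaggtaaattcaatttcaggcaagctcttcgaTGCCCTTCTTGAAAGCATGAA
21ur-5343 (chrIV:14658508-14658588, minus strand): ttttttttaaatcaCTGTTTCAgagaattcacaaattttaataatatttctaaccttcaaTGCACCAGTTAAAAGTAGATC

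In these genes the whole motif started 45 bases upstream of 21ur-7377 and 46 bases upstream of 21ur-5343, and the core started 43 bases upstream of 21ur-9572 and 44 bases upstream of 21ur-11151. Over all piRNA genes, 33.5% had the whole motif in that window, 39.8% the core only and 26.7% neither. The place made a difference. The whole motif stood before 34.9% of genes in piRNA-rich bins, 29.7% in the other bins of IV and 6.63% (exact Clopper-Pearson 95% interval 4.84% to 8.82%) on the other chromosomes, and neither form before 25.1%, 33.1% and 55.9%. On the opposite strand of the same windows in piRNA-rich bins, the whole motif was found in 0.453% and the core, which lies inside it, in 4.26%. In windows of the same length, 0.200% of protein-coding 5′ ends had the whole motif and 8.73% the core. In tiles of chromosome IV over 1000 bp from any piRNA gene, the shares were 0.152% and 6.04%. The first base was T in 96.2% of piRNA genes. Of the genes in piRNA-rich bins, 58.1% were intergenic, 32.0% intronic, 7.30% in a protein-coding promoter window and 2.60% in an exon, where the promoter window spans the 500 bp before and the 200 bp after an annotated 5′ end. Off chromosome IV, 21.7% were in a promoter window, and the median distance to a protein-coding 5′ end was 1060 bp, against 2630 bp in piRNA-rich bins.

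Peaks were read from 4 deposited lists on ce11. One held 1841 peaks kept by thresholding on the irreproducible discovery rate (IDR), a measure of how alike peaks rank in both replicates. The others are loose lists meant as its input, with 24467 peaks from both replicates pooled, 22772 from replicate 1 and 22364 from replicate 2. Each peak has a summit and a score without a named unit. Peak lists carry no read counts, so the depth of each replicate is unknown. Intervals below are 95% intervals for the counted peaks or genes, which are not independent of each other, and cover counting error only.

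XND-1 summits were rare at piRNA genes. In the IDR-thresholded list, 20 summits lay within 200 bp of 22 of the 15363 piRNA genes, a share of 0.143% (exact interval 0.0898% to 0.217%). As background, 0.749% of all 21-base windows of the 6 chromosomes lay as near to a summit, and 3.52% of protein-coding genes had a 5′ end as near. As many top peaks of replicate 1 alone reached 22 piRNA genes, and those of replicate 2 also 22. The places differed. In piRNA-rich bins, 7 of 14124 genes had such a summit, or 0.0496% (0.0199% to 0.102%), where 0.390% of windows did. In the other bins of IV, 3 of 590 genes did, or 0.508% (0.105% to 1.48%), where 0.884% of windows did.

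Off chromosome IV, 12 of 649 piRNA genes had a summit within 200 bp, which is 1.85% (0.959% to 3.21%) against 0.752% of windows. These 12 lay on chromosomes I to III, with 3 of 98 genes on I, 4 of 109 on II and 5 of 78 on III. Together that is 4.21% (2.19% to 7.24%) of 285 genes, where 1.12% of windows lay as near. No piRNA gene of V or X had one, where 0.592% and 0.0238% of windows lay as near. By the exact interval this allows shares of up to 1.81% of 202 genes and 2.25% of 162. Neither count is thus separated from its share of windows. Many piRNA genes of I to III sat in promoters. Of the 79 in a promoter window, 9 had a summit, or 11.4% (5.34% to 20.5%), beside 4.08% of windows centred in promoters there. Of the 206 elsewhere, 3 had one, or 1.46% (0.301% to 4.20%), beside 0.541% of windows. The interval for the promoter genes and that for all 285 genes lay above their shares of windows, and that for the others did not. Chromosomes I to III were grouped because the 12 genes lay there, so these intervals describe the group and cannot test it.

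In the loose lists the clusters remained low. The pooled list had 272 summits within 200 bp of 395 piRNA genes, or 2.57% (2.33% to 2.83%), where 9.51% of windows and 18.6% of protein-coding 5′ ends lay as near. The share was 2.18% in piRNA-rich bins, where it was 5.79% of windows. It was 4.24% in the other bins of IV, beside 10.6% of windows, and 9.55% on the other chromosomes, beside 9.59%. The last value joins chromosomes that went opposite ways, with 16.8% (12.7% to 21.7%) of genes beside 12.3% of windows on I to III, 5.45% (2.75% to 9.53%) beside 8.16% on V and 1.85% (0.384% to 5.32%) beside 4.44% on X. The scores of these summits had a median of 17.4, against 19.2 in the whole pooled list. A summit lay within 200 bp of 87 of the 395 genes in each replicate's own list as well. At the other extreme, 11665 piRNA genes, or 75.9%, lay more than 2 kb from any pooled summit.

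Each replicate's list gave like values. Replicate 1 had summits near 447 piRNA genes, or 2.91%, where 8.92% of windows and 18.2% of protein-coding 5′ ends were as near. Replicate 2 had them near 468, or 3.05%, where 8.76% of windows and 16.7% of 5′ ends were. In piRNA-rich bins the share of genes was 2.62% in replicate 1 and 2.74% in replicate 2, beside 6.15% and 5.71% of windows. The shares of genes and windows in the other bins of IV were 4.24% and 9.73% in replicate 1 and 3.9% and 9.47% in replicate 2, and on the other chromosomes 8.01% and 8.98%, then 8.94% and 8.86%. In both replicates, genes fell below windows on chromosome IV. The other chromosomes again differed among themselves. On I to III the shares of genes and windows were 13.3% (9.61% to 17.8%) and 11.2% in replicate 1 and 16.8% (12.7% to 21.7%) and 11.2% in replicate 2. They were 5.94% and 7.70%, then 3.96% and 7.44%, on V. On X they were 1.23% (0.150% to 4.39%) and 4.98%, then 1.23% and 4.82%.

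Most of the 22 piRNA genes with a summit of the IDR-thresholded list had no exact match to either form of the motif in the window searched. Neither form of the motif stood before 15 of them, the core only before 5 and the whole motif before 2. Against all piRNA genes, that is 15 of 4098 with neither form, or 0.366% (0.205% to 0.603%), 5 of 6118 with the core only, or 0.0817%, and 2 of 5147 with the whole motif, or 0.0389%. Genes without either form exceeded genes with one by 0.304 percentage points (0.145 to 0.543). Motif and place go together, however, and the interval reached below 0 within piRNA-rich bins, at 0.0470 points (-0.0346 to 0.213), and on the other chromosomes, at 1.43 points (-0.877 to 3.70). In the other bins of IV, the 3 genes with a summit were among the 195 with neither form. Over the pooled list the difference was 0.354 points (-0.202 to 0.970). Within piRNA-rich bins the direction was the opposite, with pooled summits near 1.81% of genes with neither form, 2.09% with the core only and 2.56% with the whole motif. These shares were 2.12%, 2.65% and 2.94% in replicate 1 and 2.43%, 2.76% and 2.94% in replicate 2. In the other bins of IV the pooled shares were 7.69%, 2.27% and 2.86%, and on the other chromosomes 10.2%, 9.47% and 4.65%. Of the 22 genes, 12 lay in a protein-coding promoter window, 21 began with T, and the summit lay upstream of 18 and downstream of 4. The summits scored between 66.9 and 1038 with a median of 96.4, below the median of 128 over all 1841. For 20 of the 22 genes, a summit lay within 200 bp in both replicates' lists too.

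The highest of these summits scored 1038 in the IDR-thresholded list, 471 in replicate 1 and 566 in replicate 2, and lay at position 10807422 of chromosome III, 60 bp upstream of 21ur-9572 (WBGene00171816). It ranked 46 of 1841. It was in an intron, and the nearest protein-coding 5′ end, of the microtubule-depolymerizing kinesin gene klp-7, was 919 bp away. The next scored 974, with 438 and 536 in replicates 1 and 2, and lay 57 bp upstream of 21ur-15059 (WBGene00169683) at position 2783385 of chromosome IV, outside the clusters and 542 bp from the 5′ end of Y54G2A.12. Both peaks were strong in both replicates, and neither was in a promoter window.

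The next, with 481 and, in replicates 1 and 2, 239 and 238, lay 91 bp upstream of 21ur-12364 (WBGene00170628) on chromosome III and 6 bp downstream of the 5′ end of toca-2, which encodes an F-BAR protein of endocytosis. On chromosome III, the summit 173 bp from 21ur-13808 scored 245, with 125 and 124 in the replicates, and the nearest protein-coding 5′ end, of the DREAM complex gene lin-9, was 4164 bp away. The summit at 21ur-13751 on chromosome II scored 230, with 108 and 127, and was 410 bp upstream of vig-1, a homolog of a Drosophila RISC component. That gene and toca-2 thus had the piRNA gene and the summit in one promoter, while 21ur-13808 did not.

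On chromosome IV, the summit 28 bp from 21ur-14823 scored 196, with 76.2 in replicate 1 and 124 in replicate 2, and was 108 bp downstream of the 5′ end of otub-3, which encodes an otubain-like deubiquitinase. On chromosome I, the summit at 21ur-11631 scored 157, with 86.5 and 69.8, in the promoter window shared by rpl-24.1 and rps-10, both ribosomal protein genes. Within the piRNA-rich bins, the strongest such summit was at 21ur-11151 in the right cluster, at position 15530798, with 129, 68.3 and 59.7. It was intergenic, and 2270 bp from the nearest protein-coding 5′ end.

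The last of the 10 strongest were those at 21ur-14704 on II, with scores of 106, 45.3 and 58.0, in an exon and 632 bp from the 5′ end of the translation factor gene eif-2Bgamma, and at 21ur-12556 on IV, with 98.7, 44.0 and 55.5, near the histone gene his-47. 21ur-12556 was the only one of the 22 that does not begin with T. The genes 21ur-3338, 21ur-2046 and 21ur-11676 shared 1 summit at position 13600847 of IV, which scored 86.7, with 35.3 and 48.9 in the replicates. Just inside the 200 bp limit were 21ur-14724 at 200 bp (scores 89.8, 51.5 and 39.7) and 21ur-5343 at 187 bp (66.9, 38.1 and 30.9). Just outside it were 21ur-12756 at 218 bp (132, 67.3 and 64.4) and 21ur-10180 at 220 bp (194, 82.8 and 110). Both summits just outside the limit scored above both just inside it.

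**Figure D1:**
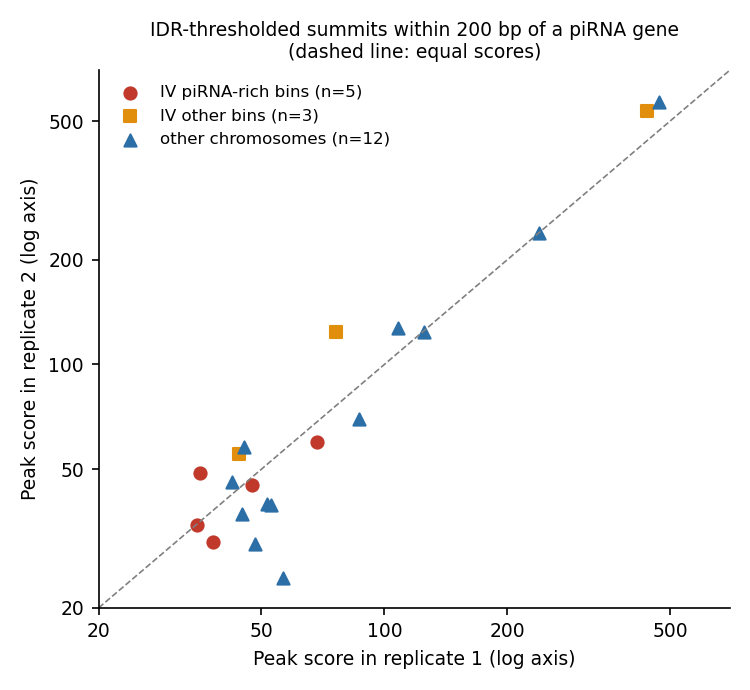
Peak score in replicate 1 (x) and replicate 2 (y), both log axes and without a named unit, of the 20 IDR-thresholded summits within 200 bp of a piRNA gene, by place; the dashed line marks equal scores. The peaks at 21ur-9572 (471 and 566) and 21ur-15059 (438 and 536) stand apart at the upper right, and the summits of piRNA-rich bins (red) stay at 68.3 or less in replicate 1.

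The piRNA genes of IV fell into a left and a right cluster. The left cluster, at IV:4800001-6600000, held 2658 piRNA genes in 18 bins, 17 of them piRNA-rich, with 44 to 220 genes per bin. The right cluster, at IV:13600001-17300000, held 11510 in 37 piRNA-rich bins, with 146 to 486 per bin. Between them lay 7.0 Mb with 477 piRNA genes.

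Peaks were sparse in both clusters. The 54 piRNA-rich bins held 50 IDR-thresholded summits, or 9.26 per Mb (exact Poisson interval 6.87 to 12.2), and the other bins 261, or 21.6 per Mb (19 to 24.4). The ratio was 0.429 (exact conditional interval 0.310 to 0.582). It was 0.430 with as many top peaks of replicate 1 alone and 0.413 with those of replicate 2. From the pooled list, 809 and 3322 summits gave 150 and 275 per Mb, a ratio of 0.545. The left cluster had 11.7 summits per Mb (7.22 to 17.8) and the right cluster 8.38 (5.69 to 11.9), with overlapping intervals, whereas the stretch between them had 22.9 (19.5 to 26.7) and that left of both 20.2 (16.4 to 24.7). No IDR-thresholded summit lay in 22 of the 54 piRNA-rich bins (40.7%) and in 21 of the 121 others (17.4%). The most in 1 bin were 3 in the clusters and 10 outside them.

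**Figure D2:**
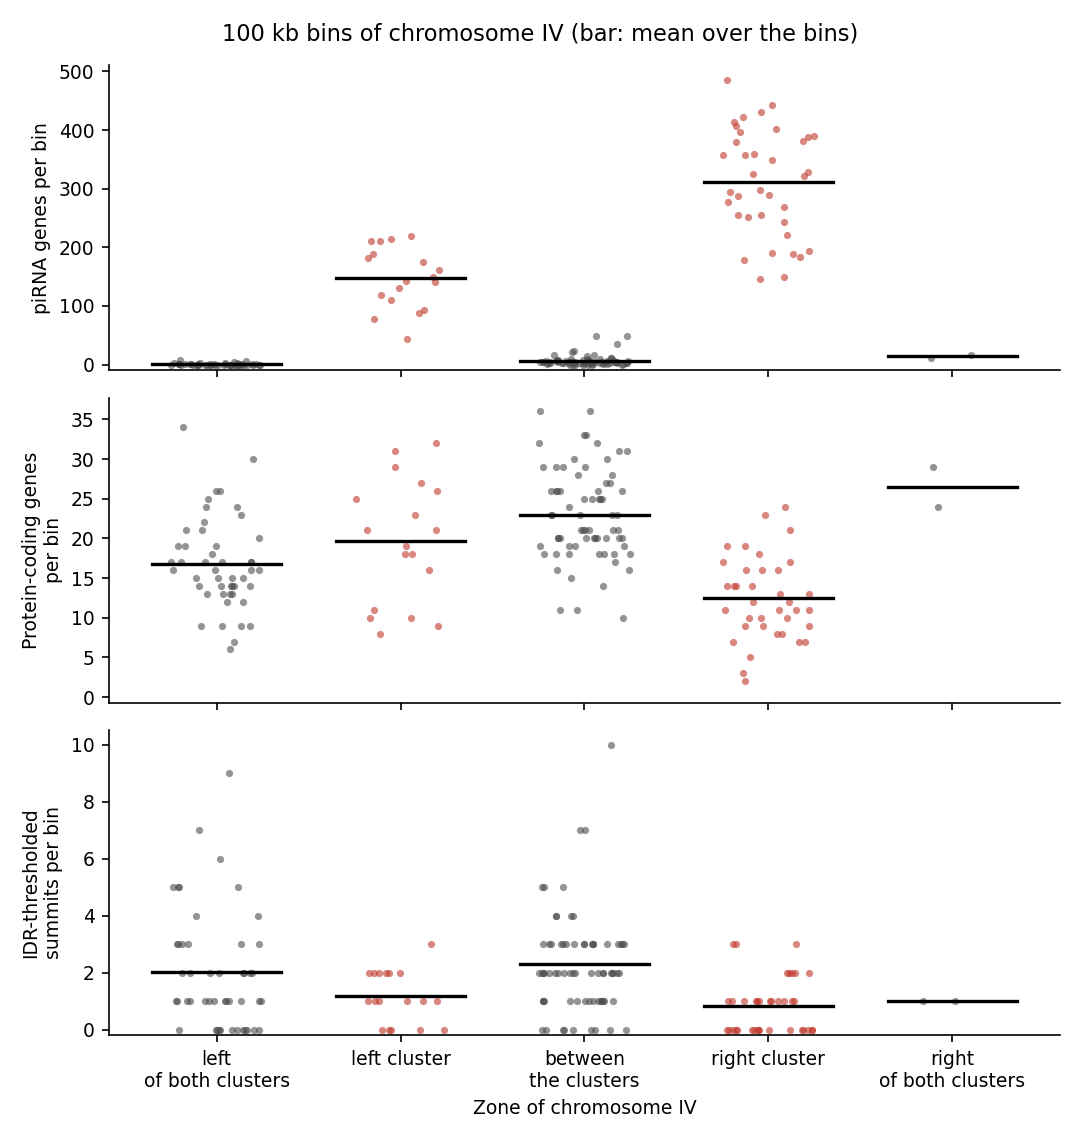
piRNA genes, protein-coding genes and IDR-thresholded summits in each 100 kb bin of chromosome IV (1 point per bin, bar: mean over the bins), for 5 zones from the left to the right end, with both clusters in red. No bin of a cluster held more than 3 summits, while bins outside the clusters held up to 10, and the right cluster also had the fewest protein-coding genes, 124 per Mb.

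The clusters also held fewer protein-coding genes, so both were set side by side. Protein-coding genes numbered 147 per Mb in piRNA-rich bins and 206 in the others, and there were 0.0631 and 0.105 summits per protein-coding gene. In the left cluster, with 197 protein-coding genes per Mb, the value was 0.0593 per gene, and in the right cluster, with 124, it was 0.0674. Among bins with like numbers of protein-coding genes, the piRNA-rich ones had fewer summits at each step. With 0 to 9 such genes they had 4.62 per Mb (1.69 to 10), against 10 (3.67 to 21.8). With 10 to 14 they had 9.44 (5.50 to 15.1), against 18.8 (12.7 to 26.8), and with 15 to 19 they had 8.33 (4.00 to 15.3), against 20.6 (16.0 to 26.1). With 20 or more they had 15.5 (9.0 to 24.7), against 23.8 (20.2 to 27.8). Only the intervals at 15 to 19 genes did not overlap. For pooled summits the intervals did not overlap at any step, with 114, 153, 132 and 206 summits per Mb in piRNA-rich bins and 215, 248, 265 and 292 in the others.

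A smaller share of protein-coding promoters was bound in piRNA-rich bins. A protein-coding gene is here called bound when a summit lies in a promoter window of it. That held for 34 of 793 genes in piRNA-rich bins, or 4.29% (2.99% to 5.94%), and for 183 of 2488 in the others, or 7.36% (6.36% to 8.45%), a difference of -3.07 percentage points (-4.69 to -1.16). Among genes without a piRNA gene in the promoter window the shares were alike, 7.32% of 396 and 7.58% of 2400. With one they were 1.26% of 397 and 1.14% of 88. In the pooled list the shares without one were 29.3% and 33.3%. With one they were 10.8% (7.95% to 14.3%) in piRNA-rich bins and 18.2% (10.8% to 27.8%) in the others. Over all protein-coding genes the share was 6.68% in the IDR-thresholded list, 27.7% in the pooled list, 27.3% in that of replicate 1 and 25.6% in that of replicate 2. Among pooled summits it was 20.1% in piRNA-rich bins and 32.8% in the others, in replicate 1 20.9% and 31.6%, and in replicate 2 18.5% and 28.9%. The median score of the summits in piRNA-rich bins was 121, against 138 in the other bins of IV, and 64.0% of them (49.2% to 77.1%) lay in promoter windows, against 59.4% (53.2% to 65.4%). Of the pooled summits, 6.18% (4.62% to 8.07%) were also in the IDR-thresholded list in piRNA-rich bins, 7.86% (6.96% to 8.82%) in the other bins and 8.27% (7.87% to 8.67%) on the other autosomes.

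The clusters were also set against the same relative positions on the other autosomes, which hold few piRNA genes. At the position of the left cluster, the density relative to the rest of the chromosome was 1.27 (0.936 to 1.70) on I, 1.63 (1.23 to 2.12) on II, 1.36 (0.992 to 1.83) on III and 1.16 (0.797 to 1.65) on V, and on IV it was 0.631 (0.385 to 0.984). At that of the right cluster it was 0.413 (0.275 to 0.599) on IV, 1.29 (1.03 to 1.61) on II and 1.05 (0.812 to 1.34) on III. It was also low on V, with 0.481 (0.328 to 0.686), and on I, with 0.616 (0.460 to 0.813), and these intervals overlap that of IV. A low density at the right cluster's position was thus not found on chromosome IV alone, while at the left cluster's position the ratio was below 1 on IV alone among these 5 chromosomes. The share of bound protein-coding genes, set against the rest of the chromosome, differed on IV by -3.30 points (-5.10 to -0.643) in the left cluster and by -2.13 (-4.02 to 0.381) in the right one, where the interval reached above 0. At the right cluster's position it differed by -6.50 (-8.57 to -4.04) on I and -2.61 (-3.64 to -1.29) on V, and by 3.53 (0.915 to 6.59) on II and 2.12 (-0.997 to 5.77) on III. At the left cluster's position the other 4 chromosomes had differences from 0.551 to 3.92.

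The bin with most piRNA genes, IV:16000001-16100000, had 486 of them, 2 protein-coding genes, no IDR-thresholded summit and 5 pooled summits, with 11 in replicate 1 and 7 in replicate 2. It opened the longest run of piRNA-rich bins without an IDR-thresholded summit, IV:16000001-16400000, with 1333 piRNA genes, 40 protein-coding genes and 24 pooled summits in 4 bins. Among the piRNA-rich bins with most such summits was IV:14700001-14800000, with 3, beside 252 piRNA genes, 24 protein-coding genes and 40 pooled summits. Across the 54 piRNA-rich bins, Spearman's rho between summits and piRNA genes was -0.33 (Pearson -0.33) for the IDR-thresholded and -0.41 (-0.39) for the pooled list. In the same bins it was 0.34 and 0.33 between these summits and protein-coding genes, and -0.66 between both kinds of gene. These are descriptions over neighbouring bins of 1 chromosome that share the same libraries, and the 3 measures move together.

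The strongest peaks in piRNA-rich bins lay at protein-coding promoters and kb away from piRNA genes in most cases. The highest, at position 6421374, scored 1495 (682 in replicate 1 and 811 in replicate 2). It was 211 bp upstream of puf-11, a PUF-family RNA-binding protein gene, and 4360 bp from the nearest piRNA gene. The second, 104 bp upstream of the yolk receptor gene rme-2, scored 1214 (550 and 667) and was 9396 bp from one. The next scored 1102 (563 and 532) inside the promoter window of Y57G11C.5, at 626 bp from a piRNA gene. All 3 were within the top 50 peaks of each replicate.

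The next 7 of the 10 strongest scored between 203 and 644. They lay upstream of gln-5, a glutamine synthetase gene (644), in a promoter shared by puf-7 and snpc-3.1 (532), and at nkcc-1, a cation-chloride cotransporter gene (420). The others were at lact-9 (330), at the ribosomal protein gene rpl-29 (293) and at fcd-2, the worm FANCD2 gene of DNA crosslink repair (203), and 1 with a score of 251 had no 5′ end within 500 bp. snpc-3.1 encodes a subunit of the small nuclear RNA activating complex, to which SNPC-4 also belongs. The distances of these 7 to the nearest piRNA gene ran from 1100 bp at nkcc-1 to 21614 bp at fcd-2.

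Within the piRNA-rich bins, summits were sparser on the bases next to piRNA genes. Bases within 200 bp of a piRNA gene made up 52.6% of these bins and held 181 of the 809 pooled summits, or 22.4% (19.5% to 25.4%). This is 63.7 summits per Mb, against 245 over the remaining bases, a ratio of 0.260 (0.219 to 0.307). The ratio was 0.288 (0.245 to 0.338) in replicate 1 and 0.333 (0.283 to 0.390) in replicate 2. In the IDR-thresholded list, 5 summits lay near and 45 away, a ratio of 0.100 (0.0310 to 0.251). For pooled summits it was 0.285 (0.203 to 0.392) in the left and 0.249 (0.203 to 0.303) in the right cluster. The ratio was 0.300 (0.195 to 0.448) inside promoter windows and 0.270 (0.223 to 0.325) outside them.

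The density rose with distance from the nearest piRNA gene. In the pooled list it was 63.7 per Mb up to 200 bp, 127 at 201 to 500 bp, 161 at 501 to 1000 bp and 231 at 1001 to 2000 bp. It reached 399 at 2001 to 5000 bp and 456 (394 to 524) beyond. Outside promoter windows the first value was 58.7 and the last 394. Replicate 1 ran from 71.8 to 465 and replicate 2 from 74.6 to 411. The IDR-thresholded list ran from 1.76 (0.572 to 4.11) up to 39.7 (22.7 to 64.4) at 2001 to 5000 bp and had 30.4 (16.2 to 51.9) beyond.

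**Figure D3:**
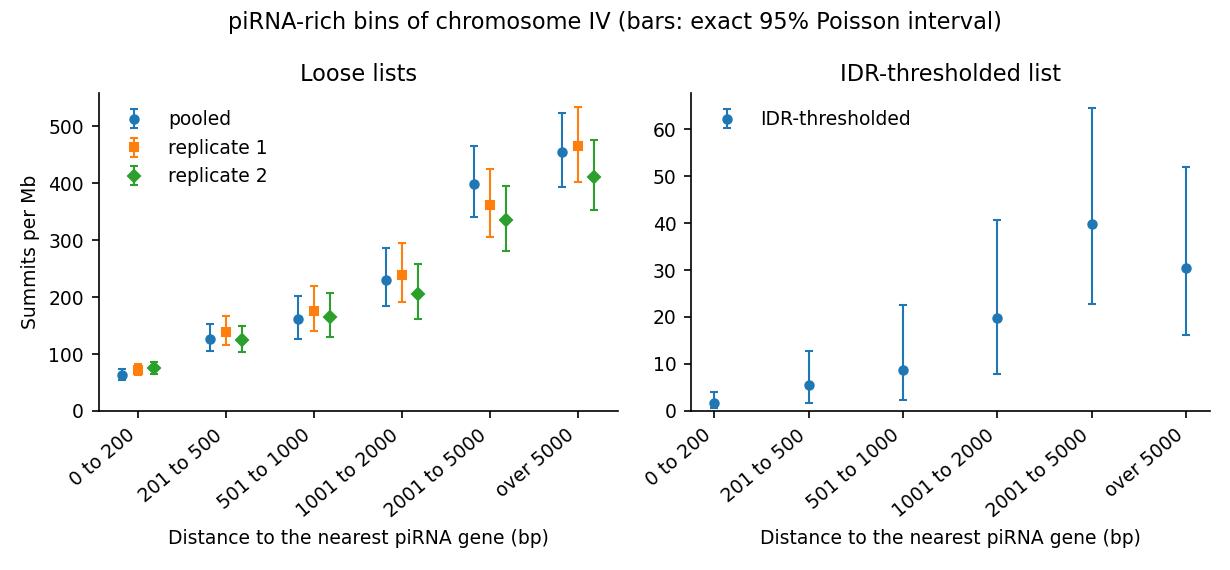
Summits per Mb (y) of the piRNA-rich bins of chromosome IV by distance in bp to the nearest piRNA gene (x), for the 3 loose lists (left) and the IDR-thresholded list (right), each with exact 95% Poisson intervals. In the pooled list the density climbs at each step from 63.7 to 456 per Mb, and both replicates follow it.

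The base composition moved with this distance. Bases within 200 bp of a piRNA gene had a GC content of 29.5% and the others in these bins 36.1%, while the 401 bp around pooled summits there averaged 38.0%. Bases were therefore compared at like GC content, measured in a window of 401 bp around them. The ratio near against away was 0.421 (0.266 to 0.673) at a GC content of 25 to 30%, 0.389 (0.285 to 0.525) at 30 to 35%, 0.578 (0.400 to 0.816) at 35 to 40% and 0.570 (0.327 to 0.930) at 40% or more. Below 25%, 12 summits lay near and 3 away, a ratio of 0.944 (0.255 to 5.21). In the pooled list the density near piRNA genes was thus the lower one in all 5 classes, by less than without regard to GC content, and in the class below 25% the interval reached above 1. Below 25% the ratio was 0.438 (0.163 to 1.30) in replicate 1 and 3.54 (0.545 to 149) in replicate 2. Replicate 1 gave ratios of 0.510, 0.431, 0.504 and 0.585 in the 4 classes from 25% up, and replicate 2 gave 0.671 (0.446 to 1.03), 0.423, 0.518 and 0.850 (0.523 to 1.32), so that in replicate 2 the lowest and the highest of them were not separated from 1.

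Around the 5′ ends of the piRNA genes in these bins, pooled summits were rarest just upstream. The density was 46.4 per Mb from 200 bp upstream to the 5′ end and 59.8 in the 200 bp after it. In the other steps of 200 bp within 2000 bp it lay between 62.7 and 93.1. Replicate 1 had 60.2 and 69.7 in the same steps, and replicate 2 had 62.3 and 66.9. Neighbouring piRNA genes share summits here, so the steps are not independent counts.

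**Figure D4:**
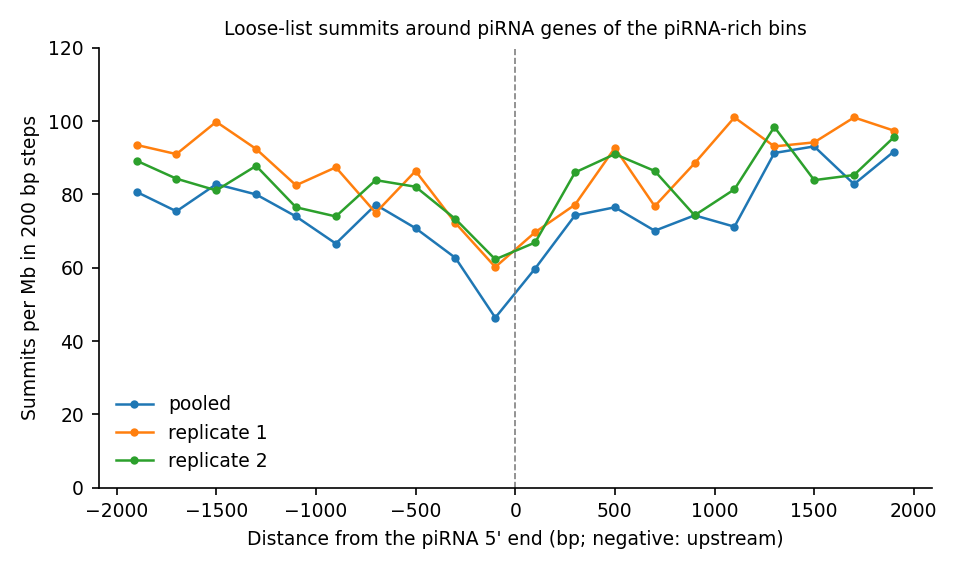
Summits per Mb (y) in steps of 200 bp by distance in bp from the piRNA 5′ end (x, negative is upstream), over the 14124 piRNA genes of piRNA-rich bins, for the pooled list and each replicate. All 3 lines are lowest in the step just upstream of the 5′ end, at 46.4, 60.2 and 62.3 per Mb.

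Protein-coding promoters that contain a piRNA gene went opposite ways on IV and on I to III. In piRNA-rich bins, 5 of 397 protein-coding genes with a piRNA gene in the promoter window were bound, or 1.26% (0.410% to 2.91%), against 29 of 396 without one, or 7.32% (4.96% to 10.3%). The difference was -6.06 points (-9.15 to -3.33), and it was -6.32 and -5.31 with as many top peaks of replicates 1 and 2. With a promoter of 200 bp upstream to 100 bp downstream it was -1.46 (-3.18 to 0.968). In the other bins of IV, 1 of 88 with a piRNA gene was bound, or 1.14% (0.0288% to 6.17%), against 182 of 2400, or 7.58% (6.56% to 8.72%).

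On chromosomes I to III, 19 of 88 protein-coding genes with a piRNA gene in the promoter window were bound, or 21.6% (13.5% to 31.6%), against 873 of 8879 without one, or 9.83% (9.22% to 10.5%). The difference was 11.8 points (4.42 to 21.5), 11.9 with as many top peaks of replicate 1 and 8.76 (2.06 to 18.1) with those of replicate 2. These chromosomes were grouped after values were seen, so the interval describes the group and cannot test it. None of 42 such genes on V and none of 20 on X was bound, which allows shares of up to 8.41% and 16.8%, against 4.34% and 0.369% of the genes without a piRNA gene. In the pooled list the shares with and without a piRNA gene were 10.8% and 29.3% in piRNA-rich bins and 46.6% (35.9% to 57.5%) and 36.1% (35.1% to 37.1%) on I to III.

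**Figure D5:**
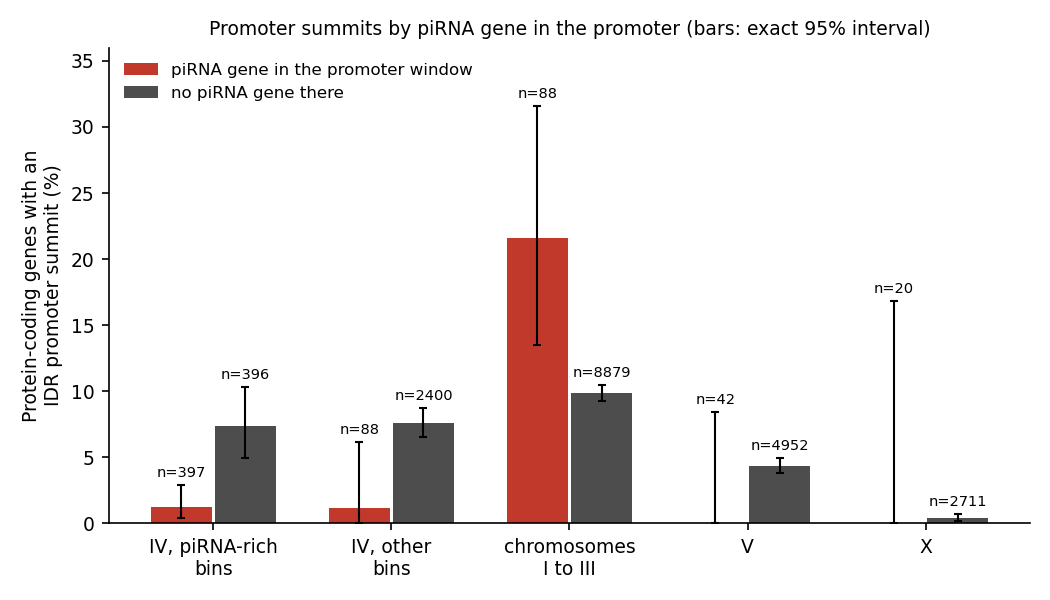
Percent of protein-coding genes with an IDR-thresholded summit in the promoter window (y) by whether that window holds a piRNA gene (red) or not (grey), for 5 places (x), with exact 95% intervals and the number of genes above each bar. With a piRNA gene the share is 1.26% against 7.32% in piRNA-rich bins and 21.6% against 9.83% on chromosomes I to III.

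Genes with several 5′ ends have more promoter windows, so genes with a single window were also counted. In piRNA-rich bins, 1 of 289 with a piRNA gene was bound (0.346%, 0.00876% to 1.91%), against 14 of 288 without one (4.86%, 2.68% to 8.02%). On I to III, 13 of 62 were bound (21%, 11.7% to 33.2%), against 529 of 6549 (8.08%, 7.43% to 8.76%). The directions were those found over all genes. The median GC content of the promoters with and without a piRNA gene was 32.1% and 36.1% in piRNA-rich bins, and its part in the difference there was not tested. On I to III it was 35.4% in both.

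The 19 bound genes on I to III rested on 14 distinct summits, since some pairs of genes share a promoter, and for 13 of the 19 the summit lay within 200 bp of a piRNA gene. They are named here after their values were seen. The genes hus-1, of a checkpoint clamp, and msh-2, of mismatch repair, share a summit (257, with 136 and 123 in replicates 1 and 2). smc-5, of the SMC5/6 complex, had a summit of 94.1 (52.7 and 39.5), and wee-1.3, an inhibitory kinase of the cell cycle, one of 80.6 (56.4 and 24.3). Of these 3 summits, that at wee-1.3 was the most uneven between replicates.

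The promoter of ego-1, a germline RNA-dependent RNA polymerase gene, had a summit of 85.7 (42.5 and 46.0) at 104 bp from 21ur-14981, and wago-1, an Argonaute gene of secondary small RNAs, one of 101 (51.7 and 48.5) at 310 bp from 21ur-11100. The ATP synthase gene atp-1 shared a summit of 84.6 (44.9 and 37.3) with mcrs-1. The strongest of the 14 was at Y110A7A.15, with 570 (271 and 293), at 229 bp from 21ur-11275. In piRNA-rich bins the 5 bound genes with a piRNA gene in the promoter window were Y57G11C.5 and nkcc-1, already given, slfl-4 (93.4, with 47.5 and 45.0), Y105C5B.20 (73.8) and anoh-2, an anoctamin gene (66.9, with 38.1 and 30.9). At Y57G11C.5 and nkcc-1 the piRNA gene nearest to the summit among those in the gene's promoter windows was 1867 and 8310 bp from it, in the window of another 5′ end.

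Genes listed as making or using piRNAs were counted apart from the loci, and the list is not a full catalogue of them. Of 20 such genes found in the annotation, 7 were bound in the IDR-thresholded list, or 35% (15.4% to 59.2%), where 6.68% of all protein-coding genes were, and 16 in the pooled list, where 27.7% were. In the transcription complex at the motif, prde-1 was bound with a score of 111 (71.4 in replicate 1 and 37.5 in replicate 2), and snpc-4, tofu-4 and tofu-5 were not. Of other genes listed under piRNA transcription, trcs-1 had 852 (438 and 410) and the chromatin remodeler gene isw-1 417 (178 and 235). The gene attf-6, for an AT-hook protein, had 330 (187 and 146), and the forkhead gene unc-130 was not bound. The placing of trcs-1 in this group was not checked against its known function. In this group 3 of 4 genes were bound, against 1 of 4 in the complex.

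Of the 7 genes listed for processing, 2 were bound, tofu-6 with 734 (400 and 335) and pid-1 with 270 (146 and 124). tost-1, pid-3, erh-2, the trimming nuclease gene parn-1 and the methyltransferase gene henn-1 were not. tost-1 had 63.3 in the pooled list (30.6 and 33.1), and henn-1 had no promoter summit in any list. Of 5 effector genes, pid-5 was bound with 1549 (742 and 809), and prg-1 itself, pid-2, pid-4 and app-1 were not, although prg-1 had a summit of 27.0 in the pooled list (17.5 and 12.3).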

How the data were processed

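ChIP-seq peaks of XND-1 in 2 replicates of 1 group were analysed from the ce11 lists; the ce10 lists were not used, because the annotation is on WBcel235 and no coordinate was converted. Peaks were called against a control alignment, once per replicate and once for both together, according to the deposited file notes, and an IDR-thresholded list was made from them. The aligner, peak caller and IDR threshold are not given in the sources used here. The deposited score of each peak (signalValue) is the authors' own, without a named unit, and served only to order and describe the peaks of one list. The −log10 q that the authors deposited for each peak was not used for ranking. No list carries read counts, so the depth is unknown and intervals cover the counting error of peaks or genes only. No untagged control list was used.

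A summit is the peak start plus the summit offset. Genes, exons and 5′ ends came from Ensembl release 115. Windows and motifs were searched as stated beside each result. Shares have exact Clopper-Pearson intervals, densities exact Poisson intervals, ratios exact conditional binomial intervals and differences of shares Newcombe intervals, all at 95%. No p-value was computed, since peaks, genes and bins are not replicates, and p-values over the 2 replicates would at most measure their spread. The search for the nearest summit and the interval for ratios were tested on simulated data, and the other intervals were not.

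The members, gene lists and comparisons were chosen with earlier results of these data known. Named piRNA genes are those nearest the 10 strongest IDR-thresholded summits within 200 bp, and the 2 just inside and 2 just outside that distance; named bins are those with most piRNA genes and most summits. Named protein-coding genes have a 5′ end within 500 bp of these summits or of the 10 strongest in piRNA-rich bins, or are in the piRNA pathway list, of which prg-2 was not matched in the annotation. For 5 piRNA-gene summits with no 5′ end within 500 bp, the nearest such gene was named outside this rule, after its values were seen. Other names were added after their values were seen, and so were the comparisons by motif over the pooled list and by place, those near and away from piRNA genes, and those by piRNA gene in the promoter. The grouping of chromosomes I to III was also made after values were seen. Alternatives were each replicate's top peaks, stricter and looser lists, other distances, bins and promoter windows. The tools were scipy 1.17.1, numpy 2.4.6 and pandas 2.3.3 under Python 3.11.15, and matplotlib 3.10.9 for the plots.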

Additional observations from a re-analysis of the deposited data

How the results depend on the processing

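No result reversed under the 57 alternatives tried, of which 38 stayed close to the value reported and 19 moved. Settings given above that went the other way were not among them. Below 25% GC content, the ratio near against away was 3.54 (0.545 to 149) in replicate 2. In the loose lists, genes of piRNA-rich bins with neither motif form had a summit less often than those with either form. No paired analysis was possible because the series has 1 group. The density ratio of piRNA-rich to other bins of IV (0.429) moved under none of its 10 alternatives, and was 0.413 to 0.430 when 1 replicate was left out. The count of piRNA genes with a summit within 200 bp (22) was 22 to 22 without 1 replicate. It was 8 with the 921 strongest IDR-thresholded peaks, 40 with 2 times as many top pooled peaks and 395 with the whole pooled list. These are 0.0521%, 0.260% and 2.57% of piRNA genes, beside 0.378%, 1.47% and 9.51% of windows. At distances of 100, 500 and 1000 bp the count was 13, 40 and 70, given here without a share of windows. The difference in bound protein-coding genes between the bins (-3.07 points) was -3.46 to -3.38 without 1 replicate, -4.93 with 2 times as many pooled peaks and -12.7 with the whole pooled list, where shares are higher throughout.

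The following alternatives were chosen after seeing the data. The motif difference (0.304 points) was 0.0470 in piRNA-rich bins and 1.43 on the other chromosomes. The ratio near against away from piRNA genes (0.260) was 0.288 to 0.333 in single replicates, 0.100 in the IDR-thresholded list, and 0.421, 0.389, 0.578 and 0.570 in the 4 higher classes of GC content. The difference by piRNA gene in the promoter in piRNA-rich bins (-6.06 points) was -6.32 to -5.31 without 1 replicate, -11.4 with 2 times as many pooled peaks, -18.5 with the whole pooled list and -1.46 with the narrow promoter, for which the cause was not tested. That on chromosomes I to III (11.8 points) was 8.76 to 11.9 without 1 replicate and moved under none of its 7 alternatives. The low counts limit what can be said of single piRNA genes, and without read counts a place without a peak cannot be told from one with too few reads to call it.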
